A study of Mus musculus with 12 samples.

Results

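Translational efficiency (TE) is the number of ribosome footprints on an mRNA for a given amount of that mRNA, and its change with halofuginone was measured gene by gene in mouse embryonic fibroblasts (MEFs). The change was the ratio of footprints to RNA with the drug divided by the same ratio in the controls, so a gene whose footprints and RNA moved by the same factor had a TE change of 0 on the log2 scale. Of 21409 protein-coding gene IDs, 7926 were counted deeply enough in both assays to be tested, out of 55536 gene IDs listed. Among these, 129 genes had RNA and footprints that passed the test in opposite directions.

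All cells were MEFs in high-glucose DMEM with 10% dialyzed serum, a medium shared by every group, and the drug-treated groups had 100 nM halofuginone for 6 h. The 12 libraries formed 4 groups of 3, namely RNA and ribosome-protected footprints (RPF), each without drug and with halofuginone (HF). RNA libraries were made from size-selected fragments of hydrolysed total RNA, and footprint libraries from the monosome fraction left by RNase I digestion, after depletion of ribosomal RNA. The labels do not say whether the 3 replicates were separate cultures. Each p-value therefore sets a change against the spread among these libraries only, and that spread may be technical.

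Halofuginone blocks the prolyl-tRNA synthetase activity of EPRS. Uncharged tRNA that then builds up is sensed by the kinase GCN2, which phosphorylates the initiation factor eIF2 and slows initiation on most mRNAs. A few mRNAs, with Atf4 as the best known, carry short upstream open reading frames (uORFs) that let the main frame be translated better when eIF2 is limiting; this is the core of the integrated stress response. A different control acts through mTORC1 on mRNAs that start with a terminal oligopyrimidine (TOP) tract, most of which encode ribosomal proteins and elongation factors. Another acts on ferritin mRNAs, whose leaders hold an iron-responsive element bound by the iron regulatory proteins.

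Levels are given in CPM (counts scaled to a library size of 1e6), scaled within each assay over the tested genes, so a change in translation that touched all mRNAs equally is not visible and every TE change is relative to the other genes. The counts hold no position within a gene, so a footprint on an upstream frame, in the main frame or at a paused codon cannot be told apart.

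Library totals ran from 562794 to 2527791 counts. Genes tested took 93.7% to 95.3% of the counts in the footprint libraries, 71.6% to 73.8% in the RNA controls and 77.7% to 79.8% in the RNA libraries with HF. Among genes with 1 to 9 counts in a library, 65.4% to 81.9% had an even count, and the reason is not given in the sources used here. Halving all counts left 6513 genes to test, of which 552 were higher and 656 lower in TE. Whether reads were counted more than once in the deposited tables was not tested. If they were, the low counts printed here stand for fewer reads. What that would do to the SEs was not tested. Within groups, log2 CPM correlated between libraries with r from 0.9224 to 0.9758. Of 13 fibroblast markers 10 averaged at least 1 CPM, with Fap and Lum at 0, and their summed level was 8310 to 8780 CPM in the RNA controls and 5940 to 6210 CPM in RNA with HF. Summed markers of epithelial cells reached at most 3.82 CPM, those of blood cells 7.59 CPM and those of muscle and nerve 90.1 CPM in any library. Summed markers of endothelium, with Tek, Pecam1 and Emcn at 0, were 0 to 2.1 CPM in the RNA controls and 7.97 to 20.2 CPM in RNA with HF, and 0 to 4.09 and 3.36 to 13.6 CPM in footprints. The part of these marker levels, and of the share of RNA counts in tested genes, in the TE changes was not tested. In bulk libraries such as these, fewer cells of a type and less RNA per cell cannot be told apart.

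TE rose for 486 genes, or 6.13% of those tested, and fell for 652 genes, or 8.23% (edgeR quasi-likelihood test of the interaction, Benjamini-Hochberg adjusted p under 0.05, called below). At least 2-fold changes were called for 250 genes upwards (3.15%) and 394 genes downwards (4.97%). The median over all genes was 0.00 on the log2 scale, and the median standard error (SE) of a gene's TE change was 0.36. Footprint and RNA changes went together over much of the range. Across the 7926 genes the log2 changes of RNA and footprints had a Pearson r of 0.714 and a Spearman rho of 0.656, a description across genes, which are not independent replicates. The SD across genes was 0.917 for the RNA change, 0.957 for the footprint change and 0.71 for the TE change.

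Genes reached a higher TE by different routes. Of the 486, 149 had more footprints with no called RNA change, 150 had less RNA with no called footprint change, 82 rose in both assays and 38 fell in both. A further 51 had RNA that fell and footprints that rose, and 16 passed in neither assay alone. Of the 652 with a lower TE, 221 had more RNA with no called footprint change, 207 had fewer footprints with no called RNA change, 56 rose in both, 73 fell in both, 78 had more RNA with fewer footprints, and 17 passed in neither. These partitions share their libraries with the TE test and are given as a description.

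**Figure D1:**
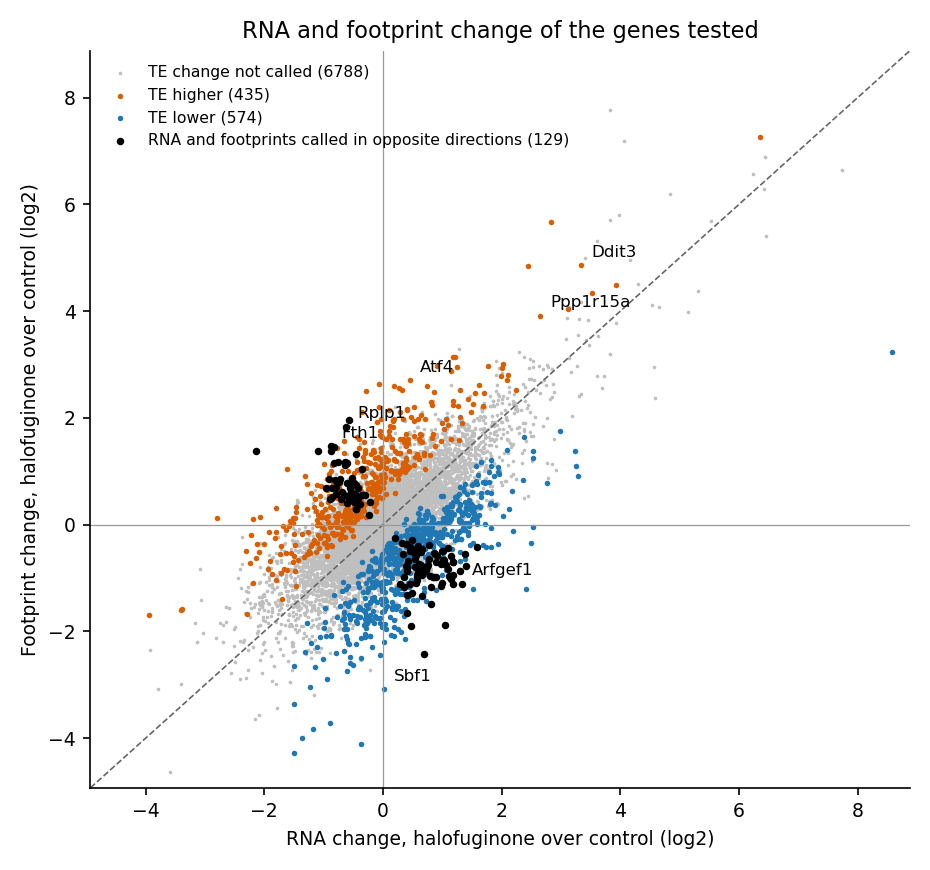
Log2 change with halofuginone in RNA (x axis) and footprints (y axis) for the 7926 genes tested, 1 point a gene; the dashed line marks equal change. Genes called in TE lie off the line (435 higher and 574 lower in colour), and the 129 black points, such as Fth1 and Arfgef1, lie in the quadrants of opposite direction.

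The TE change differed with the length of the gene. When the tested genes were sorted into 5 equal bins by the span of the RefSeq gene, introns included, the median TE change was 0.27 in the shortest bin (up to 8.93 kb) and then 0.12, -0.01, -0.15 and -0.24 (from 68.5 kb). In the shortest bin TE rose for 12.7% of the genes and fell for 2.21%, and in the longest it rose for 2.71% and fell for 16.3%. It was the RNA that moved with span: its median change went from -0.32 in the shortest to 0.22 in the longest bin, while the footprint median went from 0.03 to -0.04. Spearman's rho with span over the 7926 genes was -0.299 for TE, 0.201 for RNA and -0.0464 for footprints, and the points share libraries and depth. Genes with higher TE had a median span of 12.4 kb and those with lower TE 55.8 kb, against 25.2 kb overall. With this trend removed from each library, an alternative chosen after seeing the data, 392 genes were higher and 561 lower, of which 328 and 465 were also called without that step. The part of span in any single gene's change was not tested.

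**Figure D2:**
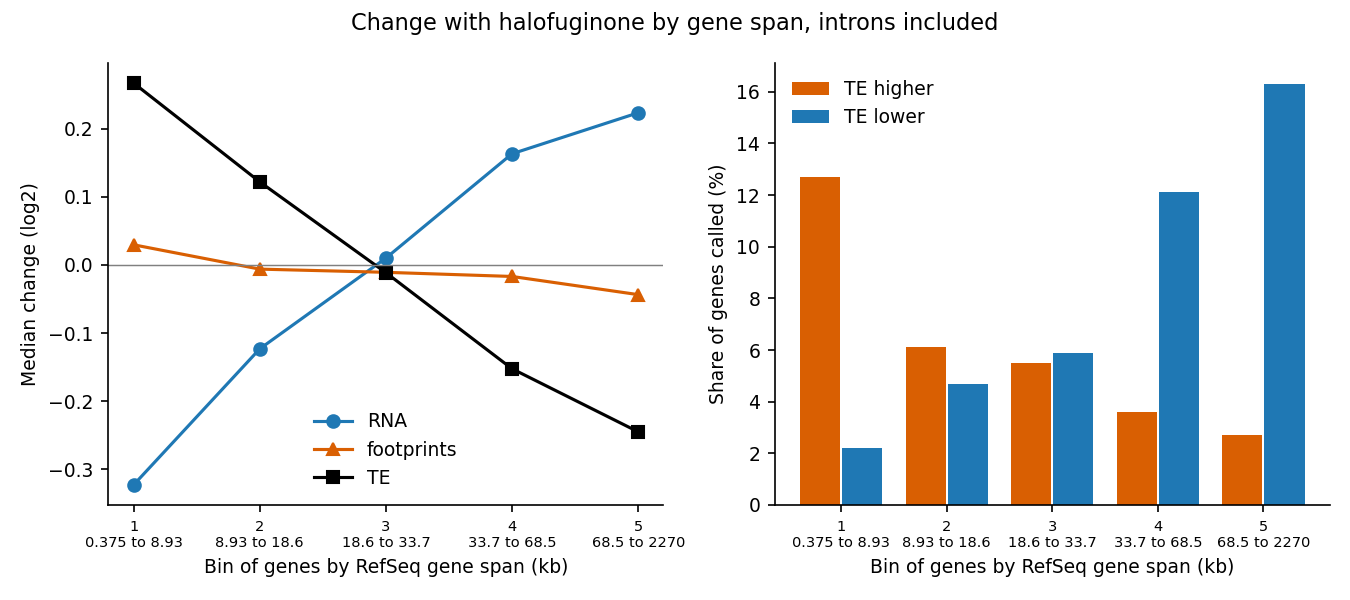
Left, median log2 change in RNA, footprints and TE for 5 equal bins of genes by gene span in kb; right, the share of each bin called higher or lower in TE. The RNA median climbs from -0.32 to 0.22 over the bins and the footprint median stays between 0.03 and -0.04.

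Atf4 was the clearest case of an mRNA that took on ribosomes beyond its RNA change. It encodes the transcription factor of the integrated stress response, lies at chr15:80255184-80257545 (GRCm38), and its RNA stood at 789, 859 and 743 CPM in the controls and 1115, 1025 and 1113 CPM with HF. Its footprints stood at 179, 183 and 188 CPM in the controls and 1175, 1201 and 1203 CPM with HF. Every HF library was above every control in both assays, by a small step in RNA and a large one in footprints. The ratio of footprint CPM to RNA CPM went from 0.23 to 1.1, and the TE change was 2.26 ± 0.13 (SE; 4.77-fold, edgeR adjusted p = 2.34e-19).

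Of 19 genes listed for the integrated stress response, 15 were tested, and TE rose for 4 and fell for none, where 6.13% of all genes rose. The list's median TE change was 0.40, against 0.00 over all genes. RNA rose for 14 of the 15 (23.9% of all genes rose) and footprints rose for 14 (23% of all genes). Besides Atf4 the 4 were Ppp1r15a, Ddit3 and Cebpb. With each library left out in turn 2 to 3 members remained called, and 1, Atf4, with the span trend removed.

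Ppp1r15a (GADD34, the stress-induced subunit that directs a phosphatase to eIF2; chr7:45522917-45526268) went from 27.3, 36.6 and 51.8 to 241, 224 and 250 CPM in RNA. In footprints it went from 11.4, 22.2 and 14.2 to 208, 214 and 305 CPM. Both assays separated the groups without overlap, and the rise was larger in footprints. TE rose by 1.27 ± 0.34 (edgeR adjusted p = 0.0074), a call that was lost without RNA control replicate 3 (0.97, adjusted p = 0.080), without footprint control replicate 1 (0.97, adjusted p = 0.072) and with the span trend removed (0.91, adjusted p = 0.070).

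Ddit3 (CHOP, a pro-apoptotic transcription factor) had 18 counts in the 3 RNA controls together and 24 in the footprint controls. Its RNA went from 10.5, 7.32 and 5.45 to 78.6, 77.1 and 89 CPM, and its footprints from 5.72, 4.94 and 2.83 to 148, 135 and 162 CPM. TE rose by 1.53 ± 0.53 (edgeR adjusted p = 0.043). That call rests on few counts: it was lost when any of 11 of the 12 libraries was left out (1.16 to 1.75 over all 12) and, with the span trend removed, was 1.24 (adjusted p = 0.13). Cebpb, a transcription factor made in long and short forms under the control of an upstream frame, rose in TE by 0.75 ± 0.25 (edgeR adjusted p = 0.032), a call lost in 8 of the 12 omissions (0.63 to 0.85) and with the span trend removed (0.42, adjusted p = 0.31).

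Several targets of ATF4 were not called in TE, which does not show that their TE was unchanged. Asns, the asparagine synthetase, had a TE change of -0.29 ± 0.14 (edgeR adjusted p = 0.16) while its RNA went from 303, 320 and 289 to 626, 617 and 572 CPM and its footprints from 531, 542 and 589 to 918, 893 and 876 CPM. All 3 HF libraries exceeded all 3 controls in both assays, with log2 changes of 0.99 in RNA and 0.70 in footprints. Over the omissions of single libraries the TE change of Asns ran from -0.35 to -0.26. Trib3, a pseudokinase induced in this response, gave -0.11 ± 0.46, and Sesn2, a leucine-sensing inhibitor of mTORC1, gave 0.15 ± 0.52. Slc7a11, the cystine transporter, had 2 counts in all RNA controls and 35 in the footprint controls, so its TE value of -2.24 ± 1.03 (edgeR adjusted p = 0.15) rests on almost no RNA.

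Genes with upstream frames were called in both directions. Of 14 tested genes listed for regulatory uORFs, TE rose for 4 (the genes named above) and fell for 2, with a median of 0.12 (6.13% of all genes rose and 8.23% fell). Leaving out single libraries gave 2 to 3 higher and 2 lower, and with the span trend removed 1 was higher and 2 lower, with a median of 0.03. Ppp1r15b (CReP, the constitutive counterpart of GADD34; chr1:133131166-133139800) was the larger fall: its RNA went from 340, 405 and 346 to 684, 762 and 739 CPM and its footprints from 158, 159 and 197 to 197, 168 and 181 CPM. RNA separated the groups and footprints overlapped. TE fell by 0.88 on the log2 scale (SE 0.17, edgeR adjusted p = 0.00022). Eprs, which encodes the enzyme that halofuginone inhibits, rose in both assays, from 127, 159 and 138 to 311, 374 and 343 CPM in RNA and from 469, 462 and 470 to 831, 775 and 668 CPM in footprints. Its TE fell by 0.58 on the log2 scale (SE 0.17, edgeR adjusted p = 0.012), or by 0.39 with the span trend removed (adjusted p = 0.12). Eprs is therefore not among the 2 genes lower with that trend removed.

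Other genes whose upstream frames are known to favour translation under eIF2 phosphorylation did not pass. Atf5, a relative of ATF4, had a TE change of 0.07 ± 0.27, with RNA going from 64.2, 67.7 and 54.5 to 149, 173 and 195 CPM and footprints from 57.6, 50.6 and 62.3 to 175, 183 and 132 CPM. Ifrd1, a transcriptional co-regulator, gave -0.07 ± 0.14, Ibtk, a substrate adaptor of a ubiquitin ligase, gave -0.04 ± 0.42, and Slc35a4, a sugar-transporter relative, gave 0.65 ± 0.32 (edgeR adjusted p = 0.19). The SEs of Atf5, Ibtk and Slc35a4 leave room for changes of a size that other called genes showed. Ifrd1 had the smallest SE of these genes. Over the omissions of single libraries Ifrd1 ran from -0.18 to 0.0103 and Atf5 from -0.0282 to 0.17. The list, written by hand, also holds Pcna (-0.31) and Jmjd6 (0.17), whose upstream frames are less well established.

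**Figure D3:**
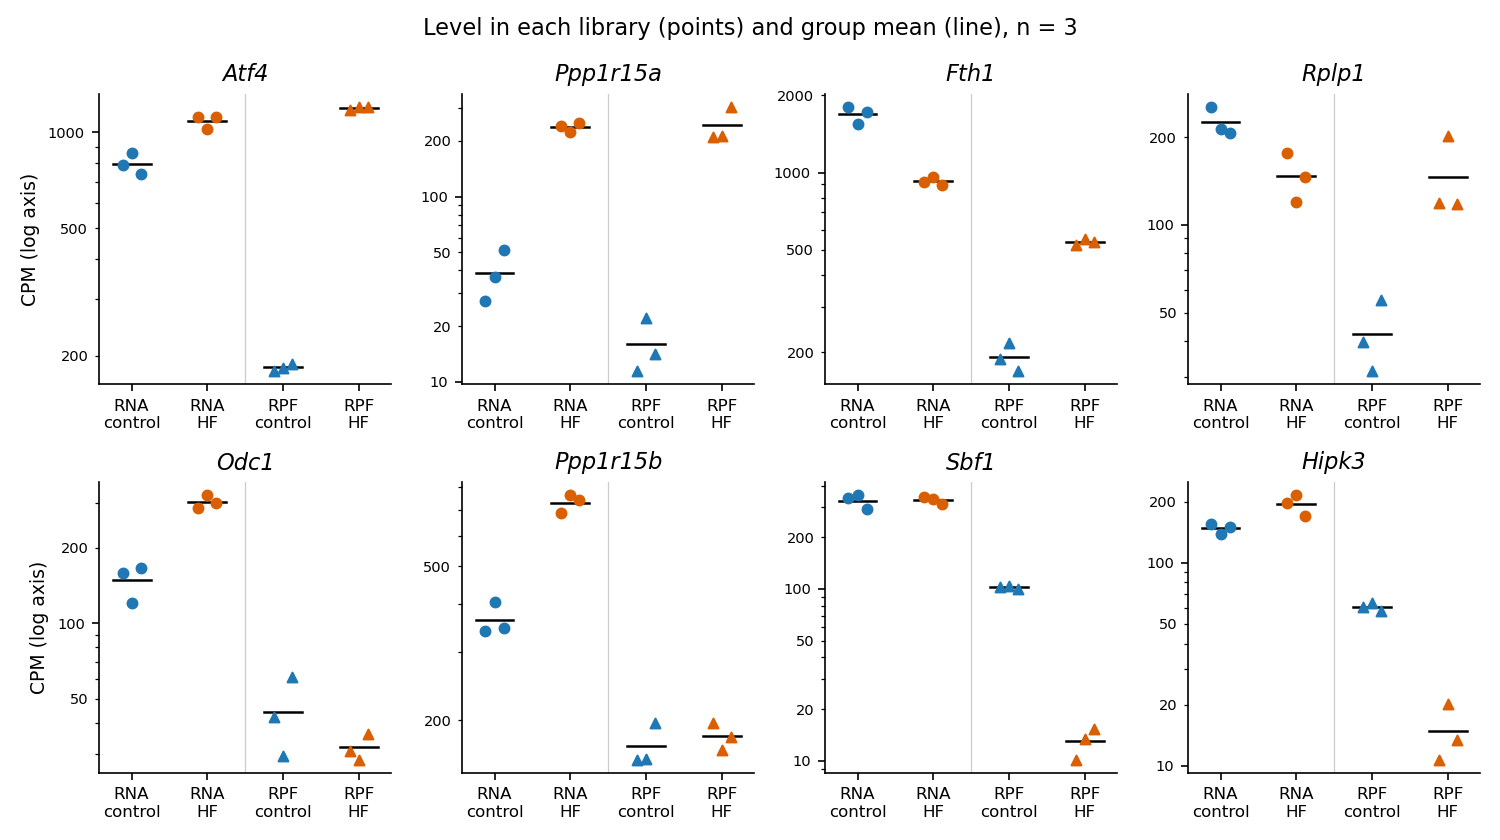
CPM of 8 genes in each of the 12 libraries on a log axis, with RNA as circles, footprints as triangles, controls in blue, halofuginone in orange and group means as lines (n = 3). Atf4 footprints rise from 179 to 188 CPM to 1175 to 1203 CPM over a small RNA step, Fth1 RNA and footprints move in opposite directions, and Sbf1 footprints fall to 10.2 to 15.3 CPM while its RNA groups overlap.

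Among called genes with mean log2 CPM of at least 4 in both assays, both ferritin chains were in the 10 with the highest TE change. Fth1, the heavy chain of the iron store (chr19:9980600-9985111), had 1808, 1543 and 1720 CPM of RNA in the controls and 921, 958 and 896 CPM with HF. Its footprints were 188, 217 and 169 CPM in the controls and 523, 552 and 534 CPM with HF. The RNA groups and the footprint groups were each separate and in opposite order. TE rose by 2.34 ± 0.13 (5.07-fold, edgeR adjusted p = 2.34e-19).

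Ftl1, the light chain (chr7:45457944-45459886), had overlapping RNA levels, at 124, 104 and 105 CPM in the controls and 121, 88.5 and 111 CPM with HF. Its footprints went from 11.8, 4.32 and 4.25 to 48.6, 37 and 59.2 CPM. All HF libraries lay above all controls in footprints, and TE rose by 2.65 ± 0.40 (edgeR adjusted p = 2.2e-06), or by 3.51 without footprint control replicate 1, the highest of the controls. Ferritin genes have near-identical copies elsewhere in the genome, and how reads shared with them were counted is not given in the sources used here.

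Of 10 tested genes of iron handling 2 rose in TE, the ferritins, and 3 fell, where 6.13% of all genes rose and 8.23% fell. Tfrc, the transferrin receptor that brings iron in, had 267, 322 and 331 CPM of RNA in the controls and 235, 311 and 215 CPM with HF. Its footprints fell from 1107, 1122 and 1072 to 517, 528 and 512 CPM. RNA overlapped and footprints did not, and TE fell by 0.80 on the log2 scale (SE 0.16, edgeR adjusted p = 0.00025). Ireb2, which encodes an iron regulatory protein, fell by 1.21 (SE 0.32, edgeR adjusted p = 0.0057), with footprints going from 141, 107 and 139 to 58.7, 38.7 and 42 CPM. Cdc42bpa, a kinase whose mRNA is also reported to hold an iron-responsive element, fell by 1.29 (SE 0.31, edgeR adjusted p = 0.0025), with RNA going from 74.7, 71.4 and 73.6 to 155, 133 and 137 CPM.

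The other genes among the 10 highest had varied roles. Taf1d, a subunit of the RNA polymerase I initiation factor, rose by 2.53 ± 0.30 (edgeR adjusted p = 7.3e-09), with RNA at 159, 163 and 189 against 117, 116 and 112 CPM and footprints at 32.7, 30.3 and 45.3 against 178, 85.8 and 122 CPM. Dusp2, a MAP kinase phosphatase, rose in both assays and by 2.40 ± 0.49 in TE (edgeR adjusted p = 0.00038), with footprints going from 4.49, 4.32 and 5.67 to 122, 136 and 155 CPM. Iscu, the scaffold for iron-sulfur clusters, rose by 2.47 ± 0.59 and Rhog, a small GTPase, by 2.48 ± 0.56 on fewer counts. Lamtor1, which anchors the Ragulator complex and with it mTORC1 at the lysosome, rose by 2.29 ± 0.50 (edgeR adjusted p = 0.00095), or by 1.70 without footprint control replicate 1, where it had 2.86 CPM against 8.64 and 14.2 CPM in the other controls. The uncharacterised gene 1110038F14Rik rose by 2.30 ± 0.57 through its RNA, which went from 52.6, 40.3 and 17.7 to 9.11, 7.59 and 7.61 CPM while its footprint groups overlapped.

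Polyamine genes showed the antizyme and its target in opposite directions. Oaz1, the antizyme that marks ornithine decarboxylase for degradation, rose in TE by 1.85 ± 0.46 (edgeR adjusted p = 0.0035). Its RNA was 109, 64.1 and 85.8 CPM in the controls and 56.9, 45.5 and 64.7 CPM with HF, groups that overlapped, and its footprints went from 8.17, 10.5 and 9.92 to 24.8, 23.5 and 13.4 CPM, groups that did not. Odc1, the decarboxylase itself, went from 158, 121 and 166 to 287, 324 and 301 CPM in RNA and from 42.1, 29.6 and 60.9 to 31.1, 28.6 and 36.3 CPM in footprints. RNA separated the groups and footprints overlapped. TE of Odc1 fell by 1.42 (SE 0.30, edgeR adjusted p = 0.00056). Eif5a, an elongation factor that carries a polyamine-derived residue and helps ribosomes through proline stretches, rose by 0.54 ± 0.13 (edgeR adjusted p = 0.0023), and by 0.24 with the span trend removed (adjusted p = 0.24). Of the 8 tested genes of this group, 2 were higher and 1 lower, with a median of 0.14 (6.13% and 8.23% of all genes). With the span trend removed 1 was higher and the median was -0.22; without footprint HF replicate 1, where Oaz1 failed the count filter, it was 1 higher.

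The mRNAs of cytosolic ribosomal proteins had a median fall in RNA that was larger than that in footprints. Of 77 tested, of 91 listed, TE rose for 29 (37.7%, against 6.13% of all genes) and fell for 3, and the median TE change was 0.42. RNA fell for 56 and rose for none (22.5% of all genes fell), with a median of -0.62, and footprints fell for 33 (21.5% of all genes) and rose for 15, with a median of -0.30. These genes are short: with the span trend removed 12 were higher and 6 lower, with a median of 0.16. Leaving out single libraries gave 22 to 27 higher and 1 to 3 lower, with 1 lower without RNA HF replicate 2 or footprint control replicate 2. Ribosomal protein genes have many processed copies in the genome, and how reads shared with them were counted is not given in the sources used here.

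Members of this family spanned the range from -1.54 to 2.45. Sequence near the 5′ end is shown for 6 of them or of their companions among TOP mRNAs. The feature that mTORC1 signalling is known to act through is a pyrimidine tract at the very start of the mRNA. Each stretch is 30 bases of the transcribed strand from the first 50 bases after the RefSeq start (RefSeq, GRCm38.p6). The capitals mark the longest run made only of C and T within those 50 bases. The runs shown begin at bases 13 to 39, not at the start. In Rpl39 and Rps24 the run reaches base 50, so its full length is not shown. For a gene with several entries, the entry with the longest run was used.
Rpl39 (chrX:37085173-37085202, minus strand): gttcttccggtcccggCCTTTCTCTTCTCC
Rps13 (chr7:116334157-116334186, minus strand): tggcgtcaCTTCCTgtgcggcttgatttcc
Rps24 (chr14:24490698-24490727, plus strand): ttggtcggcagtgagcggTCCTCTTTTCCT
Eef2 (chr10:81176637-81176666, plus strand): gtcagcggTCTCTTCCgccgcagccgccgc
Rps15 (chr10:80292448-80292477, plus strand): agcccgtaCTTCCTTTTCCgagtaaccgcc
Rps21 (chr2:180257399-180257428, plus strand): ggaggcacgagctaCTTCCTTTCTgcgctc
The first 3 of these genes rose in TE (1.98, 1.93 and 1.38), while Eef2, Rps15 and Rps21 had TE changes of 0.18, -0.42 and -0.56, of which the last was called.

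Genes with and without a long pyrimidine run had median TE changes close to 0. Promoter entries were matched for 6350 of the tested genes, and 1713 of them had a run of at least 7 bases of C or T, read on the transcribed strand only, in the first 50 bases after the start; the median TE change was -0.03 with such a run and 0.02 without. TE rose for 6.89% and fell for 9.92% of the genes with the run, against 5.76% and 7.4% of those without, and 27.4% of all 32851 promoter entries hold it. Of 60 ribosomal protein genes with an entry, 45 had the run, with 15 higher, 3 lower and a median of 0.35, and 15 did not, with 5 higher, none lower and a median of 0.37. For a C followed by 4 pyrimidines exactly at the annotated start, present in 186 genes and 2.51% of all entries, the median was -0.04 with 6.45% higher and 8.6% lower. Annotated starts can differ from the starts used in these cells, which were not measured here.

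The highest of the family was Rplp1, which forms part of the acidic stalk of the large subunit (chr9:61913283-61914510), with RNA at 255, 214 and 207 CPM in the controls and 176, 120 and 146 CPM with HF. Its footprints went from 39.6, 31.5 and 55.2 to 119, 202 and 118 CPM. RNA groups and footprint groups were each separate, in opposite order. TE rose by 2.45 ± 0.28 (edgeR adjusted p = 5.5e-09). Rpl39, a small protein near the exit tunnel, showed the same order, with RNA falling from 425, 397 and 357 to 199, 271 and 202 CPM and footprints rising from 72.3, 51.9 and 63.7 to 168, 126 and 115 CPM. Its TE rose by 1.98 ± 0.23 (edgeR adjusted p = 5.9e-09). Rps13 of the small subunit rose by 1.93 ± 0.37 (edgeR adjusted p = 0.00013).

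At the other end, Rps21 fell in both assays and more in footprints, from 478, 286 and 391 to 194, 159 and 135 CPM in RNA and from 1087, 1068 and 960 to 298, 335 and 233 CPM in footprints. Neither assay overlapped between groups, and TE fell by 0.56 (SE 0.19, edgeR adjusted p = 0.038). Rps15 moved the same way in both assays, from 267, 236 and 187 to 86.5, 69.5 and 91.3 CPM in RNA and from 729, 759 and 728 to 232, 175 and 176 CPM in footprints, with a TE change of -0.42 ± 0.20 that was not called. Rpl22l1, a paralogue of Rpl22, and Rpsa, the laminin-receptor protein of the small subunit, were the other members that fell (-1.54 and -1.18).

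Other TOP mRNAs had a median of -0.02, with 5 of 24 higher (20.8%) and 2 lower (8.33%) in TE, against 6.13% and 8.23% of all genes. The elongation factor gene Eef2 gave 0.18 ± 0.08 (edgeR adjusted p = 0.13), with RNA at 3764, 3635 and 3474 against 2211, 2269 and 2261 CPM and footprints at 4707, 4740 and 4804 against 3319, 3335 and 3381 CPM. Both assays fell without overlap, by 0.69 in RNA and by 0.51 in footprints on the log2 scale. Eef1a1, which brings aminoacyl-tRNA to the ribosome, rose by 0.31 ± 0.09 (edgeR adjusted p = 0.017), but with the span trend removed Eef1a1 was at -0.05 and Eef2 at -0.09, neither called. Without RNA control replicate 1 or RNA HF replicate 3 Eef1a1 was not called (0.23 and 0.28). Eef1g, a subunit of the exchange factor for it, rose by 0.75 ± 0.18 (edgeR adjusted p = 0.0029). Vim, the fibroblast intermediate filament, fell by 0.48 (SE 0.07, edgeR adjusted p = 3e-06). The count of higher genes was 3 without RNA control replicate 1, 8 without footprint HF replicate 3 and 2 with the span trend removed; that of lower genes was 1 without RNA control replicate 3 or footprint control replicate 1 or 2, and 4 with the span trend removed.

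Nuclear genes of the mitochondrial machinery were also higher in TE at the median. Of 47 tested genes of the respiratory chain, TE rose for 10 (21.3%, against 6.13% of all genes) and fell for none, with a median of 0.36, and 6 were higher and 2 lower with the span trend removed. RNA fell for 27 of them (22.5% of all genes fell) and rose for none, with a median of -0.49. Footprints fell for 17 (21.5% of all genes) and rose for 6 (23% of all genes), with a median of -0.20. Cox8a and Sdhb were the 2 members called with less RNA and more footprints. Sdhb, the iron-sulfur subunit of complex II, rose by 1.63 ± 0.25 (edgeR adjusted p = 3e-06), with mean RNA going from 206 to 104 CPM and mean footprints from 108 to 176 CPM. Ndufb5, Ndufb8 and Ndufb7, membrane-arm subunits of complex I, rose by 1.46 ± 0.30, 1.37 ± 0.25 and 1.23 ± 0.31.

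Of 73 mitochondrial ribosomal proteins 9 rose in TE (12.3%, against 6.13% of all genes) and 1, Mrpl19, fell, with a median of 0.29. The count of higher genes was 5 without RNA HF replicate 2, footprint control replicate 2 or footprint HF replicate 1, and 4 without RNA HF replicate 3 or with the span trend removed. RNA fell for 18 and rose for 2 (22.5% and 23.9% of all genes), with a median of -0.36. Footprints fell for 12 and rose for 12 (21.5% and 23% of all genes), with a median of -0.09. Mrpl12 and Mrpl21 were the 2 members called with less RNA and more footprints. Mrpl12, a protein of the large mitochondrial subunit (chr11:120484637-120488754), went from 222, 178 and 195 to 128, 94.8 and 115 CPM in RNA and from 65.8, 67.9 and 69.4 to 206, 168 and 172 CPM in footprints. Its groups were separate in both assays and in opposite order. TE of Mrpl12 rose by 2.27 ± 0.24 (edgeR adjusted p = 6.2e-10).

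**Figure D4:**
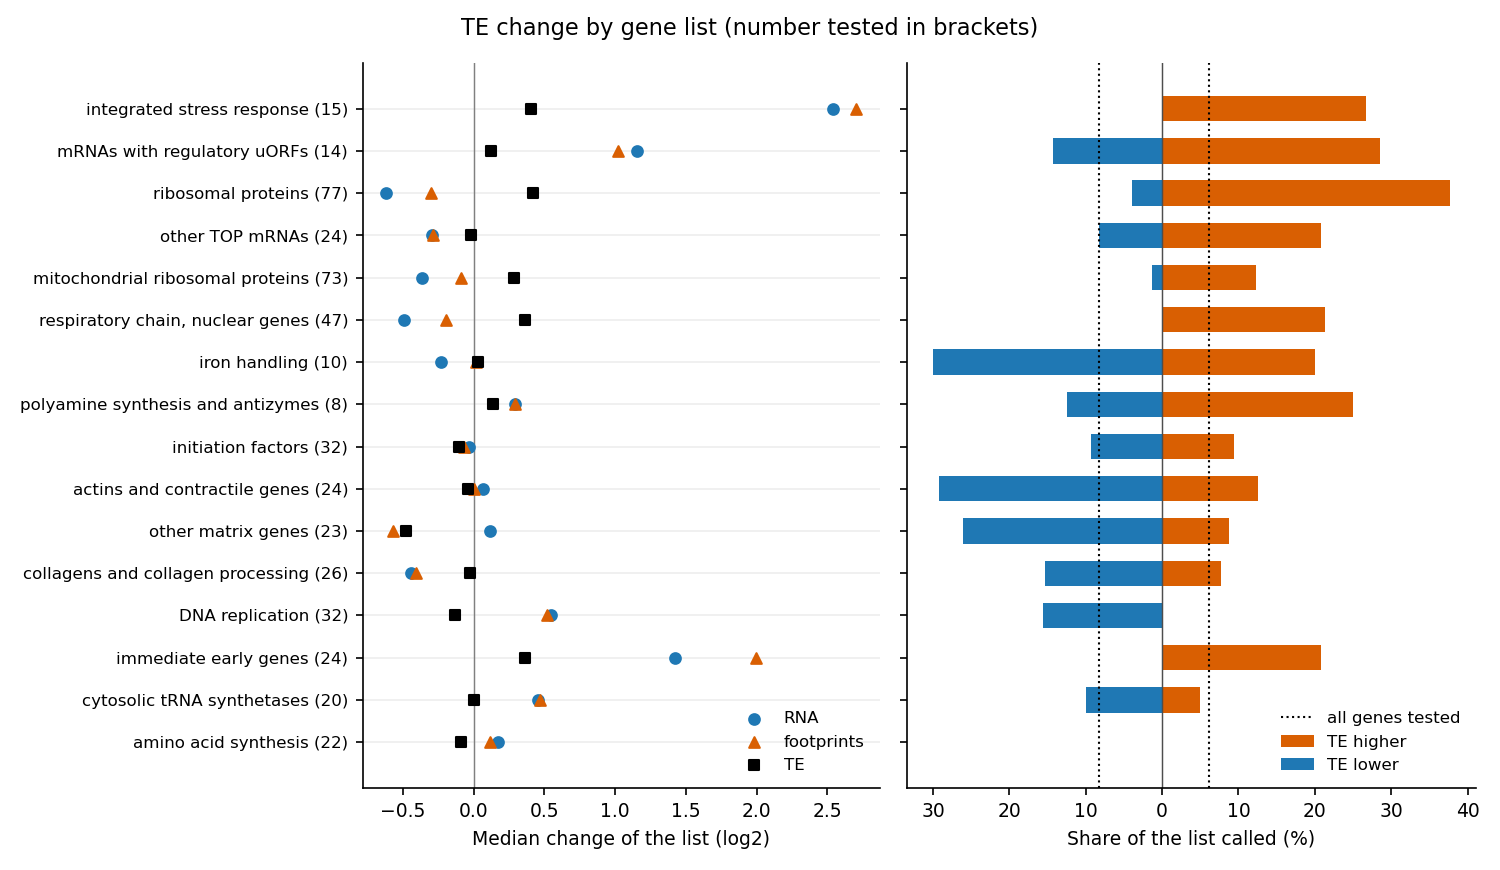
For 16 gene lists with the number tested in brackets: left, the median log2 change in RNA, footprints and TE; right, the share of the list called higher (to the right) or lower (to the left) in TE, with dotted lines at the shares over all genes, 6.13% and 8.23%. The bar for ribosomal proteins reaches furthest to the right, and those for iron handling and contractile genes reach furthest to the left.

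The 10 lowest TE changes were likewise taken among called genes with mean log2 CPM of at least 4 in both assays. None of these 10 genes was called lower in RNA. Sbf1, a catalytically inactive member of the myotubularin family (chr15:89288236-89315311), had RNA at 338, 351 and 292 CPM in the controls and 344, 334 and 314 CPM with HF. Its footprints fell from 103, 104 and 101 to 10.2, 13.5 and 15.3 CPM. RNA overlapped and footprints were far apart. TE fell by 3.11 (SE 0.27, edgeR adjusted p = 6e-12), to 0.116 of its control value.

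Some others of the 10 lowest lost footprints over a small RNA change. Hipk3, a nuclear protein kinase, had RNA at 156, 139 and 150 against 196, 215 and 170 CPM and footprints at 60.5, 63.6 and 58.1 against 10.7, 20.2 and 13.4 CPM, and its TE fell by 2.54 (SE 0.33, edgeR adjusted p = 6.6e-08). Fem1b, a substrate receptor of a cullin ubiquitin ligase, fell by 2.35 (SE 0.28), with RNA called higher (0.47) and footprints called lower (-1.90). Mib1, a ubiquitin ligase for Notch ligands, fell by 2.32 (SE 0.26). In Atad2b, a bromodomain ATPase, and Arhgap5, a GTPase-activating protein, it was RNA that rose while no footprint change was called. Atad2b RNA went from 8.41, 14.6 and 10.9 to 59.2, 72.1 and 60.1 CPM and its footprints from 20.8, 32.1 and 28.3 to 23.7, 25.2 and 30.5 CPM, for a TE change of -2.57 ± 0.51 (edgeR adjusted p = 0.00023). Htt, huntingtin, fell by 2.30 (SE 0.27), with more RNA and fewer footprints.

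Among contractile genes, 7 of 24 were lower in TE (29.2%, against 8.23% of all genes) and 3 higher (12.5%, against 6.13%), with a median of -0.04; without footprint control replicate 1 it was 4 lower. All 4 tropomyosin genes, which encode the coiled coil along actin filaments, were among the 7. Tpm1 had RNA at 794, 890 and 794 CPM in the controls and 733, 611 and 667 CPM with HF, and footprints at 1405, 1249 and 1310 CPM in the controls and 335, 442 and 326 CPM with HF. Both assays fell without overlap, RNA slightly and footprints strongly. TE of Tpm1 fell by 1.56 (SE 0.14, edgeR adjusted p = 8.9e-12). Tpm3 fell by 1.42 (SE 0.25), Tpm2 by 1.14 (SE 0.19) and Tpm4 by 0.71. Tagln2, an actin-binding transgelin, rose by 0.91 ± 0.16 (edgeR adjusted p = 3e-05).

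Among 32 initiation factors 3 were higher and 3 lower, 9.38% each, against 6.13% and 8.23% of all genes, with a median of -0.10. Eif1, which keeps the scanning ribosome selective for the start codon, had mean RNA of 159 CPM in the controls and 259 CPM with HF and mean footprints of 164 and 90.9 CPM. Its TE fell by 1.56 (SE 0.22, edgeR adjusted p = 6.1e-07). Eif3j1, a loosely bound part of eIF3, fell by 1.83 (SE 0.50, edgeR adjusted p = 0.0079) from a mean of 4.88 CPM of RNA in the controls. Of 38 genes of eIF2 and mTORC1 signalling, 5.26% were called higher and 7.89% lower, against 6.13% and 8.23% of all genes. The 2 that were higher were Lamtor1 and Eif4ebp1, which encodes an inhibitor of cap-dependent initiation; the latter (0.72 ± 0.24, edgeR adjusted p = 0.032) lost its call in 6 of the 12 omissions (without RNA control replicate 1, RNA HF replicate 1 or 3, footprint control replicate 3, or footprint HF replicate 1 or 2), with joint TMM scaling (adjusted p = 0.053) and with the span trend removed (0.62, adjusted p = 0.078). Among the 3 that fell was Rptor, the scaffold of mTORC1 (-1.02 ± 0.28, edgeR adjusted p = 0.0082; -0.69 and adjusted p = 0.10 with the span trend removed). Eif2ak4, which encodes GCN2, gave 0.51 ± 0.42 (edgeR adjusted p = 0.48).

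Opposite movement of RNA and footprints was found for 129 genes (1.63%). Of all genes tested, 78 (0.984%) were higher in RNA and lower in footprints and 51 (0.643%) the reverse. DESeq2 gave 64 and 30, joint TMM scaling 104 and 38, and upper-quartile scaling 96 and 41. Both directions are relative to the other genes of the same assay. The rule used both changes, so their sizes and the TE change they imply are a description without a test. Medians were 0.70 for RNA, -0.79 for footprints and -1.56 for TE in the first set, and -0.60, 0.68 and 1.38 in the second. The groups were separate in both assays for 72 of the 78 and for 36 of the 51. Over all genes, RNA groups did not overlap for 52.8% and footprint groups for 51.9%, each assay taken alone. The share of all genes separate in both assays was not computed. The 129 genes were picked by a call in both assays, which favours separate groups, so the 72 and 36 are no further evidence. Both changes were at least 2-fold for 5 genes of the first set and 2 of the second. At the threshold, Sept10 (larger adjusted p 0.0498) and Aurkaip1 (0.0487) were just inside, and Cltc, clathrin heavy chain, with RNA at 0.92 and footprints at -0.20, was just outside (0.0508). The median span was 76 kb in the first set and 6.99 kb in the second, and with the span trend removed the sets held 69 and 44 genes.

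Among genes with more RNA and fewer footprints, the deubiquitinases Usp7 and Usp24 were in the 8 with the largest changes. Usp7 (chr16:8688722-8757067) went from 197, 189 and 194 to 378, 412 and 372 CPM in RNA and from 203, 203 and 205 to 101, 109 and 68.7 CPM in footprints. No library of one group reached into the other in either assay. Arfgef1, an exchange factor for ARF GTPases at the Golgi, had RNA at 40, 80.5 and 46.3 against 96.8, 149 and 155 CPM and footprints at 113, 94.5 and 99.2 against 47.4, 63.9 and 30.5 CPM. Pik3c2a, a class II phosphoinositide kinase, and Usp24 also showed separate groups in both assays, while Vps13b, a lipid-transfer protein of the Golgi, overlapped in RNA.

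Among genes with less RNA and more footprints, 11 of the 51 (21.6%) were ribosomal proteins. That is 14.3% of the 77 ribosomal protein genes tested, against 0.643% of all genes tested. Rpl4, Rpl12, Rpl39, Rplp1, Rps2, Rps13, Rps14, Rps16, Rps20 and Rps24 were among these 11. RNA fell for 56 of the 77, which are short genes with many processed copies, and the part of span and copies in this count was not tested. Mbd3, a core subunit of the NuRD chromatin complex (chr10:80392539-80399531), went from 333, 234 and 293 to 180, 148 and 145 CPM in RNA and from 38.4, 44.5 and 25.5 to 101, 124 and 64.9 CPM in footprints. Both assays separated its groups. Txn2, the mitochondrial thioredoxin, had RNA at 343, 315 and 275 against 150, 163 and 180 CPM and footprints at 75.2, 78.4 and 51 against 120, 153 and 113 CPM. Mcat, a mitochondrial acyltransferase, was nearer the threshold, with RNA at 37.9, 51.3 and 72.2 against 36.4, 22.8 and 31.2 CPM and footprints at 19.2, 18.5 and 22.7 against 32.8, 37 and 38.2 CPM. The TE call of Mcat was lost without RNA control replicate 3 (1.37, adjusted p = 0.063).

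**Figure D5:**
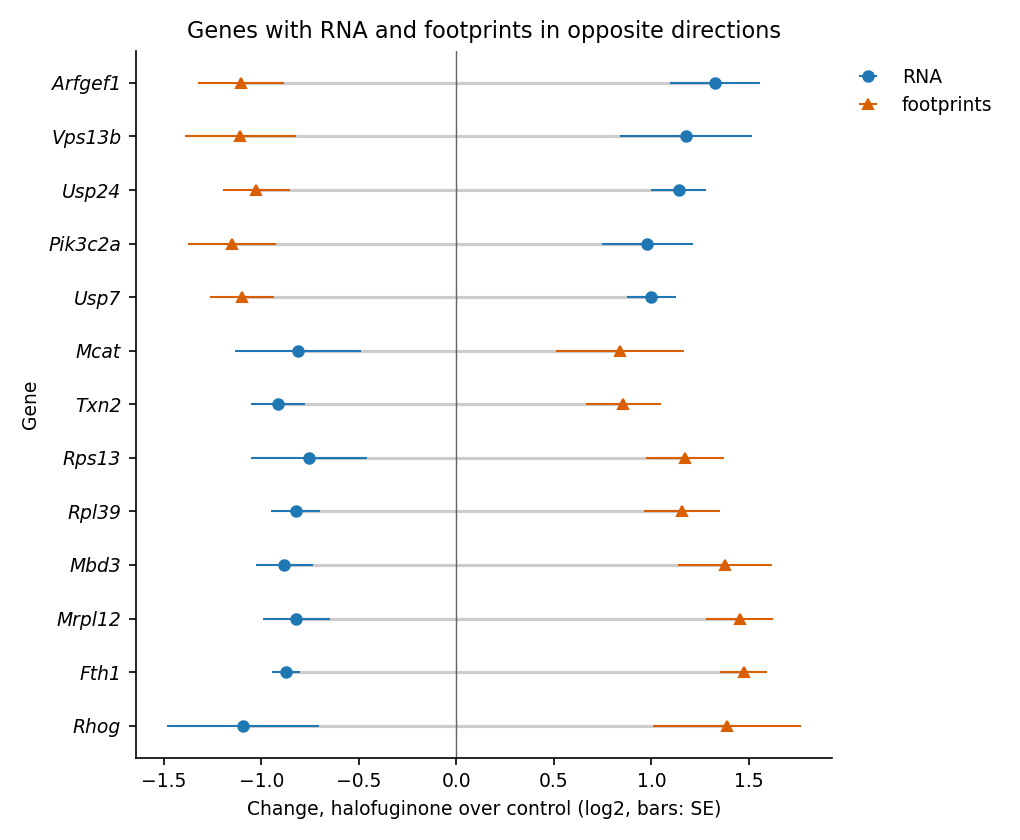
Log2 change with halofuginone in RNA and footprints, with bars of 1 SE, for well-counted genes among those with the largest change in opposite directions. In the upper genes, such as Arfgef1, RNA lies right of 0 and footprints left, and in the lower 8 the order is reversed, as in Fth1.

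The next lists hold collagens, tRNA synthetases and genes of amino acid supply. For collagens and their processing enzymes, proline-rich proteins of the matrix, 2 of 26 were higher (7.69%) and 4 lower (15.4%), against 6.13% and 8.23% of all genes, with a median of -0.02. Col1a1 and Col1a2, the chains of type I collagen, went in opposite directions: Col1a1 had RNA at 2088, 2081 and 2024 against 1090, 1023 and 1103 CPM and footprints at 2549, 2561 and 2575 against 1640, 1749 and 1726 CPM, a TE rise of 0.36 ± 0.10 (edgeR adjusted p = 0.0080; 0.26 and adjusted p = 0.057 with the span trend removed), while Col1a2 fell by 0.54 (SE 0.11, edgeR adjusted p = 0.00025). Both fell in RNA and in footprints. Among 20 cytosolic tRNA synthetases, 5% were higher and 10% lower, against 6.13% and 8.23% of all genes. Yars, for tyrosine, rose by 0.64 ± 0.17 and Lars, for leucine, fell by 0.72 (SE 0.17), beside Eprs. None of 22 genes of amino acid synthesis and none of 16 mitochondrial synthetases was called. Of all genes 14.4% were called in either direction. Genes not called are not shown to be unchanged. Slc7a5, an importer of large neutral amino acids, was the only 1 of 17 amino acid transporters called (5.88%), with a TE change of 0.80 ± 0.16 (edgeR adjusted p = 0.00036).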

How the data were processed

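Ribosome footprints and RNA fragments of MEFs were sequenced in 12 libraries. The authors deposited 1 table of raw counts per library, with 55536 gene IDs each and no entry without a gene. Bowtie, HISAT2, HTSeq and GRCm38 are named in the submitters' processing notes, without versions or roles; the counted feature, the strand setting and how reads with several matches were handled are not stated there. Symbols, gene types, spans and start sequences came from RefSeq (GRCm38.p6), matched by symbol.

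Protein-coding genes that passed filterByExpr (minimum count 10) in both assays were fitted with edgeR 4.0.16 (R 4.3.3): 1 coefficient per group, TMM factors within each assay, quasi-likelihood F test of the interaction for TE and of HF against control for each assay. P-values were Benjamini-Hochberg adjusted over 7926 genes at a threshold of 0.05. Scripts were tested on simulated data.

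The members and gene lists were chosen with earlier results of these data known. Genes were named by rule: the 10 highest and 10 lowest TE changes with mean log2 CPM of at least 4 in both assays, 8 genes per opposite direction, up to 4 called members per list, and 25 set names; list members beyond these were chosen after their values were seen. Same-numbered replicates did not deviate together (correlations -0.0181 to 0.0437 over 6587 genes), so the numbers were not used as pairs. Alternatives were RLE, upper-quartile and joint TMM scaling, other count minimums, DESeq2 1.42.0, limma-voom 3.58.1, halved counts, replicate blocks, omission of each library and removal of the span trend. Planned descriptions by protein length and proline share, and mitochondrially encoded mRNAs, are not analysed here, and some genes that the rule names are not reported here.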

Additional observations from a re-analysis of the deposited data

How the results depend on the processing

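Counts of genes called in TE stayed within 1.5 times of 486 higher and 652 lower under every alternative run, at 357 to 552 and 507 to 747, and no gene of the 486 or 652 was called with the opposite sign in any of them. Joint TMM scaling over the 12 libraries gave 402 higher and 747 lower and moved the median of all genes to -0.06. With a replicate block 458 were higher and 625 lower, and with a block by number within treatment 439 and 602. Leaving out single libraries gave 357 to 448 higher and 507 to 639 lower, 67 to 90 genes with RNA higher and footprints lower, and 34 to 49 with the reverse. DESeq2 gave 30 genes with RNA lower and footprints higher, where edgeR gave 51; the cause was not tested. The blocks by number within treatment were not run for opposite directions, which have 1 assay per fit.

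Of 136 named genes, 123 were called in TE; 90 of these stayed called with each of the 12 libraries left out, 12 lost the call in 1 to 3 omissions and 21 in 4 or more. Uncalled genes near 0 changed sign: over the omissions Ibtk ran from -0.45 to 0.27, Atf5 from -0.0282 to 0.17, Ifrd1 from -0.18 to 0.0103, Trib3 from -0.38 to 0.10, Sesn2 from -0.32 to 1.56 and Aldh18a1 from -0.0038 to 0.13. Ibtk was 0.0325 with counts halved. With the span trend removed Ibtk was 0.14, Atf5 -0.26 and Eef2 -0.0890. Eef1a1 (0.31) and Tubb5 (0.32, edgeR adjusted p = 0.010) were called without that step and were -0.0544 and -0.0046 with it, neither called. Totals of 562794 to 2527791 counts and groups of 3 limit precision for weakly counted genes.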

Other observations

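Immediate early genes, the fast transcription factors and phosphatases of growth signalling, rose in TE for 5 of 24 (20.8%, against 6.13% of all genes) and fell for none, with a median of 0.36; the count was 3 without RNA control replicate 2, footprint control replicate 1 or footprint control replicate 2, and 3 higher and 1 lower with the span trend removed. Jund, an AP-1 subunit, rose by 1.27 ± 0.22 (edgeR adjusted p = 4.1e-05), Ier3, a short-lived survival factor, by 1.11 ± 0.28 (edgeR adjusted p = 0.0040) and Fosl2, another AP-1 subunit, by 0.93 ± 0.19 (edgeR adjusted p = 0.00038). Vegfa, the endothelial growth factor, rose by 1.21 ± 0.28 (edgeR adjusted p = 0.0016) over an RNA rise of 1.76. Sqstm1, the autophagy receptor p62, rose by 0.71 ± 0.13 (edgeR adjusted p = 1e-04) over an RNA rise of 2.10.

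Genes of DNA replication rose in RNA for 23 of 32 (23.9% of all genes rose), with a median of 0.55. Footprints rose for 21 (23% of all genes) and fell for 3 (21.5% of all genes), with a median of 0.51. TE fell for 5 (15.6%, against 8.23% of all genes) and rose for none, with a median of -0.13. Lig1 and Rfc1 were the 2 members called with more RNA and fewer footprints. Rfc1, the large subunit of the clamp loader, fell by 1.67 (SE 0.26, edgeR adjusted p = 3e-06), Lig1, the replicative ligase, by 0.94 (SE 0.23, edgeR adjusted p = 0.0028) and Mcm4, a helicase subunit, by 0.66 (SE 0.14, edgeR adjusted p = 0.00068). Kif11, the spindle kinesin, fell by 1.41 (SE 0.22, edgeR adjusted p = 5.9e-06). Of 25 mitosis genes tested, 1 was lower (4%) and 2 were higher (8%), against 8.23% and 6.13% of all genes. Replication-dependent histones, whose mRNAs end without a poly(A) tail, had 6 of 59 higher and 2 lower (6.13% and 8.23% of all genes) with a median of -0.11, and share near-identical copies.

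Matrix genes other than collagens had the lowest median of the lists shown, -0.48, with 6 of 23 lower and 2 higher (8.23% and 6.13% of all genes). With the span trend removed 4 were lower and the median was -0.31. With joint TMM scaling 10 were lower, 3 without RNA control replicate 3 or RNA HF replicate 3, and 2 without footprint control replicate 2. Without RNA control replicate 1, 1 was higher. Fn1, fibronectin, had mean RNA going from 2004 to 6429.7 CPM and mean footprints from 2291 to 4018 CPM, and TE fell by 0.87 (SE 0.08, edgeR adjusted p = 4.3e-11). Hspg2, perlecan, fell by 0.73 (SE 0.12, edgeR adjusted p = 8.8e-06) with more RNA and no called footprint change. Ncl, nucleolin, fell by 0.76 (SE 0.11, edgeR adjusted p = 4e-07) and Hsp90b1, a chaperone of the endoplasmic reticulum, by 0.85 (SE 0.14, edgeR adjusted p = 9e-06). Of 31 proteasome subunits 1 was higher (3.23%) and 3 were lower (9.68%) in TE, against 6.13% and 8.23% of all genes. Psmd8 rose by 0.99 ± 0.19 (edgeR adjusted p = 0.00011) and Psmd6 fell by 0.97 (SE 0.18, edgeR adjusted p = 0.00013). Psmd2 and Psmd3 also fell, and Psmd3 lost its call in 4 of the 12 omissions of single libraries. Pmaip1, a BH3-only killer induced by p53 and ATF4, had 0 counts in the 3 RNA controls and 164 with HF, so its fitted TE change is no measure of size.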
